A study of Sus scrofa with 12 samples.

Results

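The loci described here are 25 candidate miRNA genes of the pig that carry no miRNA name and lie on sequence not assigned to any chromosome. They were chosen by their read counts, as every entry of the small RNA tables whose name begins with chrUn and that had at least 1 read in any of 6 testis libraries. They are 25 of 637 names with a read, beside 248 unnamed loci on placed chromosomes and 364 named miRNAs. Since reads chose them, the presence of reads is a description and was not tested. Of 27 such names listed, 46836 of chrUn_NW_018084979v1 and 47018 of chrUn_NW_018085018v1 had 0 reads and fell outside, while 46819 and 46932 fell just inside with 1 read each.

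A miRNA gene is transcribed as a longer RNA that folds into a hairpin, and the enzymes Drosha and Dicer cut the hairpin to a short mature strand that guides Argonaute proteins to messenger RNAs. miRNA genes often stand in clusters that are transcribed together. Programs that find miRNA genes from small RNA reads give a new hairpin a name made of its sequence and a running number until it is matched to a known miRNA. Unplaced sequence is assembled sequence whose chromosome is not known, and it is often repeated or hard to assemble. Whether the 25 loci yield true miRNAs was not tested, and their mature sequences were not used here.

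Testis tissue came from adult male pigs of 12 months. The groups were the labels' Western Duroc, called Duroc below, and Large white, with 3 small RNA libraries each, made with a TruSeq small RNA kit and read from a single end. The Diannan small-ear breed, also in the series' design, was not analysed here. No label says whether 2 libraries of a breed are 2 animals, so p-values here describe the spread of libraries, part of which may be technical.

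The Duroc libraries had the larger totals, with 3473206 to 13209412 counted reads over all entries against 1481386 to 2483001 in Large white. These totals cover reads counted at miRNA entries only, not all reads sequenced. A read was thus worth 0.0757 RPM, the authors' scaling of reads to a common total, in Duroc library 1 and 0.675 RPM in Large white library 1. In Duroc library 1 miR-143-3p took 51.5% of the reads counted with 1 entry per name. The scale factor from edgeR's trimmed mean of M-values (TMM) was 0.464 in that library, against 0.792 to 1.36 in the other libraries. miR-34c, abundant in male germ cells from meiosis on, had 12684 to 19235 RPM in Large white and 18510 RPM in the second Duroc library, but 1216 RPM in Duroc library 1 and 3080 RPM in Duroc library 3. It was the only 1 of 5 germ cell markers matched by name. Of the gonadal markers, miR-202-5p had 4059, 11611 and 7057 RPM in Duroc against 11412 to 14506 in Large white, and miR-202-3p had 197, 858 and 550 RPM against 509 to 578, so that Duroc library 3 was low in the first and not in the second. The smooth muscle markers went opposite ways, with miR-143-3p at 228130 to 486472 RPM in Duroc against 167642 to 264849 in Large white and miR-145-5p at 1111 to 1406 RPM against 1745 to 2145. The liver marker miR-122-5p was at 4.16 to 61.6 RPM in all 6 libraries. Duroc libraries 1 and 3 stood apart in miR-34c, and results that rest on them are given below without them too.

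The running number at the end of a name orders the loci. The numbers of the 22 sequences with unnamed loci did not overlap, so the number runs through one sequence before the next. Whether it follows position within a sequence is not given in the sources used here. Of the 25 loci, 4 lay on chrUn_NW_018084833v1 with numbers from 46009 to 46068, and 21 lay on chrUn_NW_018084979v1 with numbers from 46792 to 46976. The loci are called by this number from here on, so that 46792 stands for chrUn_NW_018084979v1_46792.

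Reads were very unequal along this order. The 21 loci of chrUn_NW_018084979v1 held 17347 of the 17370 reads of all members, and the 4 of chrUn_NW_018084833v1 held 23. Locus 46901 had the most, with 427 ± 346 RPM for Duroc and 820 ± 114 RPM for Large white (SD, n = 3 per breed). Next came 46864, with 123 ± 172 and 168 ± 10.5 RPM, and 46792, with 58.9 ± 17.8 and 22.9 ± 8.23 RPM. Locus 46976 followed with 9.72 ± 5.32 and 16.1 ± 10.1 RPM. Every other locus had a mean of 5 RPM or less over the 6 libraries, and 10 of the 25 had fewer than 10 reads in all libraries together.

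**Figure D1:**
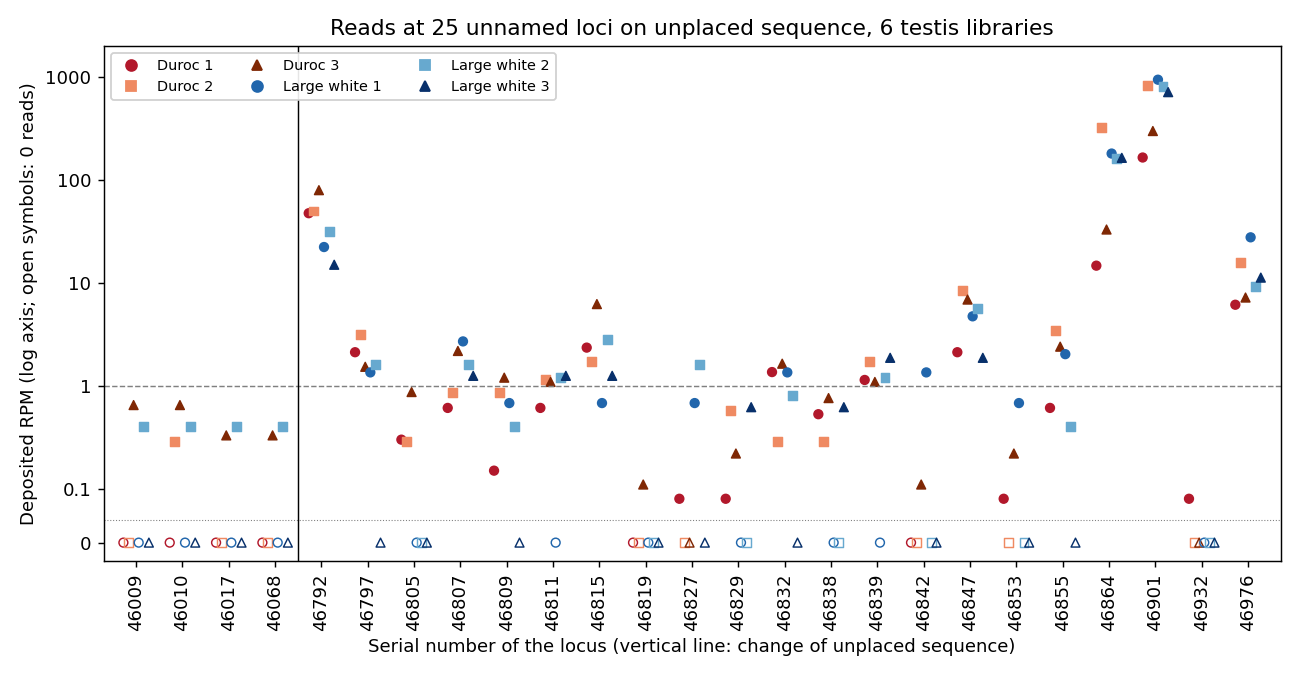
Deposited RPM on a log axis for each of the 25 loci, ordered by running number, with 1 point per library and open symbols where a library had 0 reads. Loci 46792, 46864, 46901 and 46976 stand above the rest, the 3 Duroc libraries lie highest at 46792, and Duroc libraries 1 and 3 lie lowest at 46864 and 46901.

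Of the 25 loci, 12 reached 1 RPM in at least 3 libraries and were tested, all on chrUn_NW_018084979v1. Each of the 12 reached 1 RPM in at least 1 library of either breed. At this level a locus needed 14 reads in Duroc library 1 but 2 in Large white library 1, so the filter was unequal between libraries. None of the 12 passed edgeR's quasi-likelihood test at an adjusted p of 0.05, against 0% of the 421 names tested. Before adjustment 1 of the 12 lay under 0.05, higher in Duroc, where 7.84% of all names did so, and 0 lay under 0.05 in the other direction, against 6.41%. None had all Duroc libraries below all Large white libraries, as 11.4% of names had with TMM and 21.6% had in RPM as deposited. With TMM 3 of the 12, 46792, 46797 and 46847, had all Duroc libraries above, against 11.9% of names. In RPM as deposited 1 did, 46792, against 2.61%. DESeq2 called 1 of the 12, the same locus 46792, where it called 1.9% of the 421 higher in Duroc. It gave no adjusted p for 49 of the 421 names, which could thus not be called. Among these were loci 46797, 46807, 46811, 46832, 46839 and 46855.

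Locus 46792, the first on its sequence, had the largest log2 fold change of the 12 with TMM scaling over all 6 libraries, but not in every setting. With library totals, 46855 was at 1.38 against its 1.30. With limma on log2(RPM + 0.1), 46855 was at 1.96 and 46797 at 1.86 against its 1.38. Without Large white library 2, locus 46815 was at 2.49 and 46797 at 2.39 against its 2.35. Without Duroc library 1, locus 46855 was at 2.24 against 1.92 for 46792, and without Duroc library 3, 46797 was at 2.04 against 1.92. Neither 46792 nor these others passed by adjusted p in those settings. With Duroc library 2 alone against Large white, 46797 was at 1.54 against 1.11 for 46792. Locus 46792 had 627, 173 and 728 reads in Duroc libraries 1 to 3, or 47.5, 49.8 and 79.5 RPM. The Large white libraries had 33, 78 and 24 reads, or 22.3, 31.4 and 15.0 RPM. All Duroc libraries lay above all Large white ones, in RPM as deposited, as did 2.61% of the names tested. With TMM scaling the normalised RPM was 86.1 ± 37.6 for Duroc and 19.9 ± 6.28 for Large white (SD, n = 3 per breed), again without overlap, as for 11.9% of names. The log2 fold change of Duroc over Large white was 2.10 (SE 0.43), which did not pass (edgeR adjusted p = 0.0974 over all names).

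The size of this difference depended on the scaling, but its direction did not. With library totals in place of TMM the log2 fold change was 1.30 (edgeR adjusted p = 0.386), where the median of all names moved from 0.06 to -0.56. Relative to those medians 46792 was 2.04 higher with TMM and 1.85 higher with totals. Leaving out any 1 library gave values between 1.91 and 2.39. Without Duroc library 2 the locus passed, with a log2 fold change of 2.39 and an edgeR adjusted p of 0.00192. With DESeq2 it passed at 0.000492, and with no filter on low counts at an edgeR adjusted p of 0.0160, where 0.628% of 637 names were called higher. Over all settings its adjusted p ranged from 0.000492 to 0.427. With Duroc library 2 alone against Large white, without the 2 libraries that stood apart, the log2 fold change was 1.11 (edgeR adjusted p = 0.372, the spread taken from Large white).

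The 8 tested loci that follow, from 46797 to 46855, rested on few reads, between 27 and 144 in all 6 libraries together and between 4 and 24 in Large white. Their fold changes are therefore imprecise. All 8 had a positive log2 fold change with TMM, between 0.13 and 1.92, and none lay under an unadjusted p of 0.05 by edgeR. With library totals 46807 was at -0.62, near the median of all names, and the other 7 were between 0.03 and 1.38. Over all 421 names 53.2% were positive with TMM and 18.3% with totals.

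Locus 46847 had the most reads of these 8, with 28, 29 and 63 in the Duroc libraries against 7, 14 and 3 in the Large white ones. In RPM that was 2.12, 8.35 and 6.88 against 4.73, 5.64 and 1.87, so the breeds overlapped, and Duroc library 1 lay below Large white libraries 1 and 2. With TMM scaling, which raised Duroc library 1, the breeds did not overlap, and the log2 fold change was 0.97 (SE 0.51, edgeR adjusted p = 0.378).

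Locus 46815 had 31, 6 and 57 reads in Duroc against 1, 7 and 2 in Large white, or 2.35, 1.73 and 6.22 RPM against 0.68, 2.82 and 1.25. Large white library 2 lay above Duroc libraries 1 and 2 here. The log2 fold change was 1.77 (SE 0.78, edgeR adjusted p = 0.351). Without Duroc library 2 it was 2.15 and passed (edgeR adjusted p = 0.0469), and with Duroc library 2 alone it was -0.0047.

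Locus 46797 had 28, 11 and 14 reads in Duroc against 2, 4 and 0 in Large white, or 2.12, 3.17 and 1.53 RPM against 1.35, 1.61 and 0. Duroc library 3 lay between the Large white libraries in RPM and above them with TMM. The log2 fold change was 1.78 (SE 0.81, edgeR adjusted p = 0.353). Locus 46855 had 8, 12 and 22 reads in Duroc against 3, 1 and 0 in Large white, with a log2 fold change of 1.92 (SE 0.92, edgeR adjusted p = 0.371) and overlapping breeds. Of the remaining 4, locus 46832 was at 1.57, 46839 at 0.95, 46811 at 0.73 and 46807 at 0.13 on the log2 scale with TMM, with standard errors from 0.71 to 1.07 and overlapping breeds in each.

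The last 3 tested loci in the order, 46864, 46901 and 46976, had negative log2 fold changes with both scalings. So had 197 of the 421 names with TMM and 344 with library totals. The median of all names with totals was -0.56, and 46864 at -0.47 lay above it. Locus 46864 had 194, 1114 and 302 reads in the Duroc libraries against 267, 399 and 262 in the Large white ones. In RPM it had 14.7, 321 and 33.0 in Duroc against 180, 161 and 164 in Large white. Duroc library 2 was the highest of all 6 and Duroc libraries 1 and 3 the lowest, on either side of a narrow Large white range. The log2 fold change was -0.34 (SE 0.70, edgeR adjusted p = 0.859). It was -1.94 without Duroc library 2, where the locus passed (edgeR adjusted p = 0.00252), but 0.13 without Duroc library 1, 0.07 without Duroc library 3 and 0.93 with Duroc library 2 alone (edgeR adjusted p = 0.271).

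Locus 46901 had 2179, 2845 and 2732 reads in Duroc against 1392, 2011 and 1139 in Large white. In RPM it had 165, 819 and 298 in Duroc against 940, 810 and 712 in Large white, so that Duroc library 2 lay within the Large white range and Duroc libraries 1 and 3 below it. The log2 fold change was -0.54 (SE 0.29, edgeR adjusted p = 0.378). Without Duroc library 2 it was -0.91 and passed (edgeR adjusted p = 0.0225), and with that library alone it was 0.0030. Locus 46976 had 81, 55 and 66 reads in Duroc against 41, 23 and 18 in Large white, or 6.13, 15.8 and 7.20 RPM against 27.7, 9.26 and 11.2. The breeds overlapped, with a log2 fold change of -0.15 (SE 0.45, edgeR adjusted p = 0.923).

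Without Duroc library 2, edgeR called 16.2% of the 402 names then tested, among them 4 of the 11 unplaced loci then tested. Of these 4, 46792 and 46815 were higher in Duroc, where 6.97% of all names were called higher, and 46864 and 46901 were lower, where 9.2% were.

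**Figure D2:**
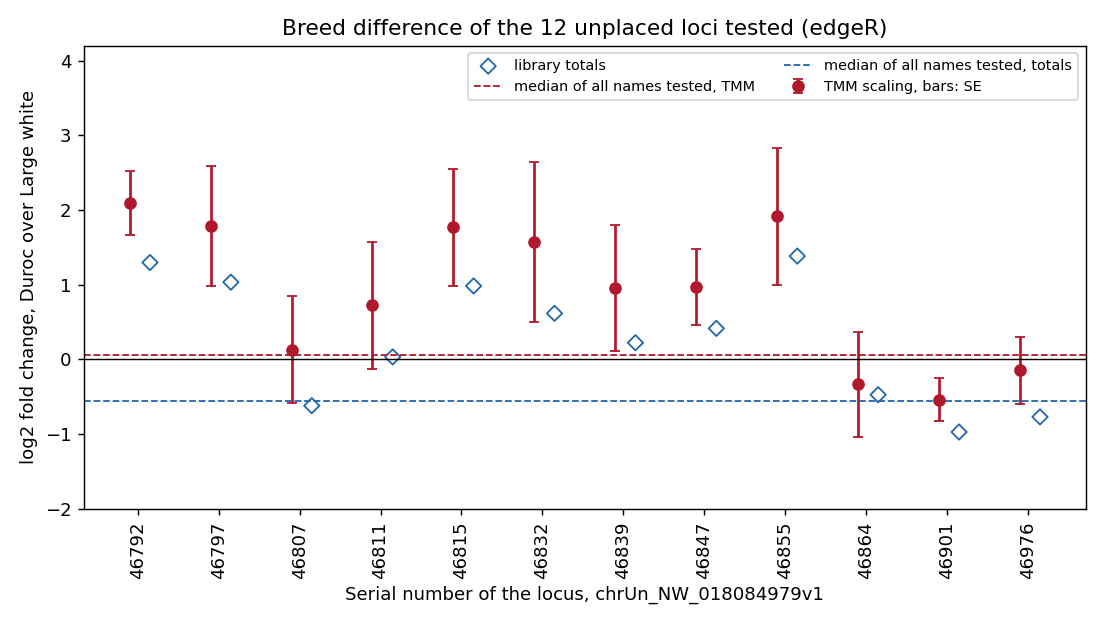
Log2 fold change of Duroc over Large white for the 12 tested loci in order of running number, by edgeR with TMM scaling (filled, bars show the SE) and with library totals (open), with dashed lines at the median of all names under each scaling. The first 9 loci lie above the median of all names with TMM, and 46901 and 46976 lie below it under both scalings.

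Over the 12 tested loci the median log2 fold change was 0.96 with TMM, where all 421 names had 0.06, the 300 named miRNAs 0.06 and the 109 unnamed loci on placed chromosomes -0.06. With library totals these medians were 0.32, -0.56, -0.57 and -0.52. The 12 loci thus lay 0.90 and 0.87 above all names under the 2 scalings, as a description without a test. Leaving out 1 library moved the median to between 0.41 and 1.17, the lowest without Large white library 1, where 10 loci were tested. With Duroc library 2 alone it was 0.51 over 10 loci.

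The make-up of the reads at the 25 loci does not depend on scaling, since it compares loci within a library. These shares were compared after the values had been seen, and no test is given. Locus 46901 took 67.2%, 66.7% and 66.8% of these reads in the Duroc libraries against 79.2%, 78.6% and 78.2% in the Large white ones. That is 66.9 ± 0.279% against 78.7 ± 0.528% (SD, n = 3 per breed), without overlap. How often shares of other names separate in this way was not counted. What took the rest differed between the Duroc libraries. Locus 46792 held 19.3%, 4.05% and 17.8% in Duroc against 1.88%, 3.05% and 1.65% in Large white. Locus 46864 held 5.98%, 26.1% and 7.39% in Duroc against 15.2%, 15.6% and 18.0% in Large white. The near-equal share of 46901 in the Duroc libraries was thus the sum of unlike parts, with 46792 high in libraries 1 and 3 and 46864 high in library 2.

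**Figure D3:**
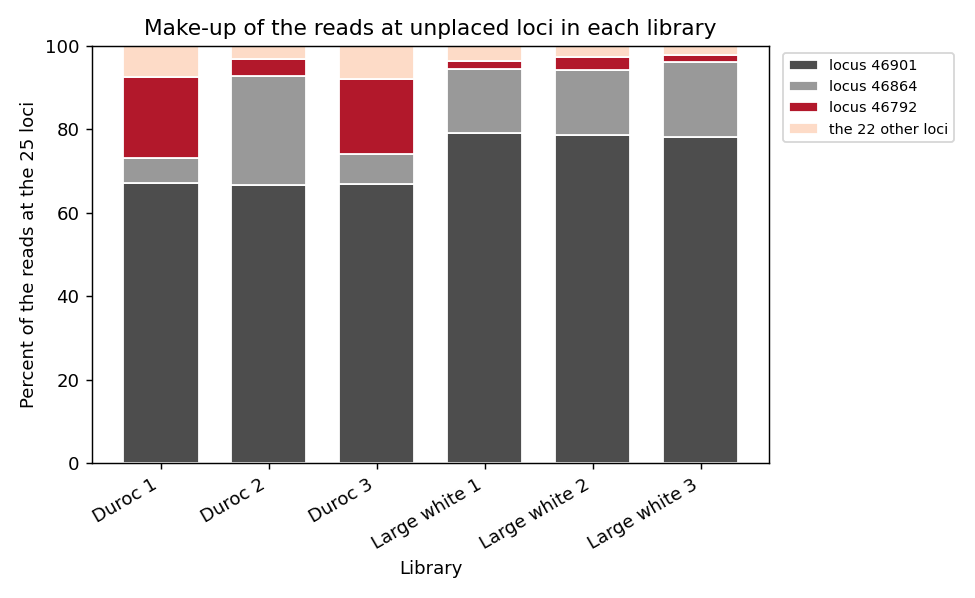
Percent of the reads at the 25 loci taken by 46901, 46864, 46792 and the 22 other loci, as 1 stacked bar per library. Locus 46901 takes 66.7% to 67.2% in Duroc and 78.2% to 79.2% in Large white, and 46792 takes most in Duroc libraries 1 and 3.

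Against each 1000 reads of 46901 in the same library, 46792 had 288, 60.8 and 266 reads in the Duroc libraries against 23.7, 38.8 and 21.1 in the Large white ones. All 3 Duroc values lay above all Large white values. For 46864 the same figures were 89.0, 392 and 111 in Duroc against 192, 198 and 230 in Large white, Duroc lying on both sides. For 46976 they were 37.2, 19.3 and 24.2 against 29.5, 11.4 and 15.8.

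Locus 46864 varied between libraries alongside the germ cell miRNA miR-34c. Both were lowest in Duroc library 1 and next lowest in Duroc library 3. That order was also seen in other names, such as miR-17-5p at 86.6, 582 and 153 RPM in Duroc against 528 to 740 in Large white. It was not seen in miR-100, at 17399, 18191 and 18282 RPM in Duroc against 17117 to 18373 in Large white. Against each 1000 reads of miR-34c, 46864 had 12.1, 17.3 and 10.7 reads in the Duroc libraries against 9.37, 8.88 and 12.9 in the Large white ones, a far narrower range than that of its RPM. Locus 46901 had 136, 44.3 and 96.8 per 1000 reads of miR-34c in Duroc against 48.9, 44.8 and 56.1 in Large white. Fewer cells of a type and less RNA per cell cannot be told apart in tissue, and the part of germ cell content in these results was not tested.

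RefSeq's gene table for Sscrofa11.1, the pig assembly that susScr11 denotes, listed 8 named miRNA genes without a chromosome, and 11 of their mature names stood in the files. It gives positions but does not name the unplaced sequence, so whether any shares a sequence with the 25 loci cannot be told. Among the 8 were MIR381 at 50024 to 50105, MIR376A at 46331 to 46410 and MIR376C at 45235 to 45312, all miRNAs of the imprinted DLK1-DIO3 region, and MIR126 at 1108695 to 1108767, known from endothelium. The gene DIO3, a deiodinase that inactivates thyroid hormone and an end of that region, was also listed without a chromosome, at 504081 to 506187.

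miR-381-3p had 450, 768 and 713 RPM in the Duroc libraries against 437, 409 and 280 in the Large white ones. Its log2 fold change with TMM was 1.43 and its edgeR adjusted p 0.0974, as for 46792. Against each 1000 reads of miR-381-3p, 46792 had 105, 64.9 and 111 reads in Duroc against 50.9, 76.8 and 53.6 in Large white, so that the breeds overlapped on this measure. Against each 1000 reads of miR-126-3p it had 8.71, 5.15 and 9.58 in Duroc against 2.05, 2.98 and 1.70 in Large white, without overlap. The share of all names that separate on this measure was not counted. miR-376a-3p had 3 reads in all libraries together and miR-376c had 1.

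**Figure D4:**
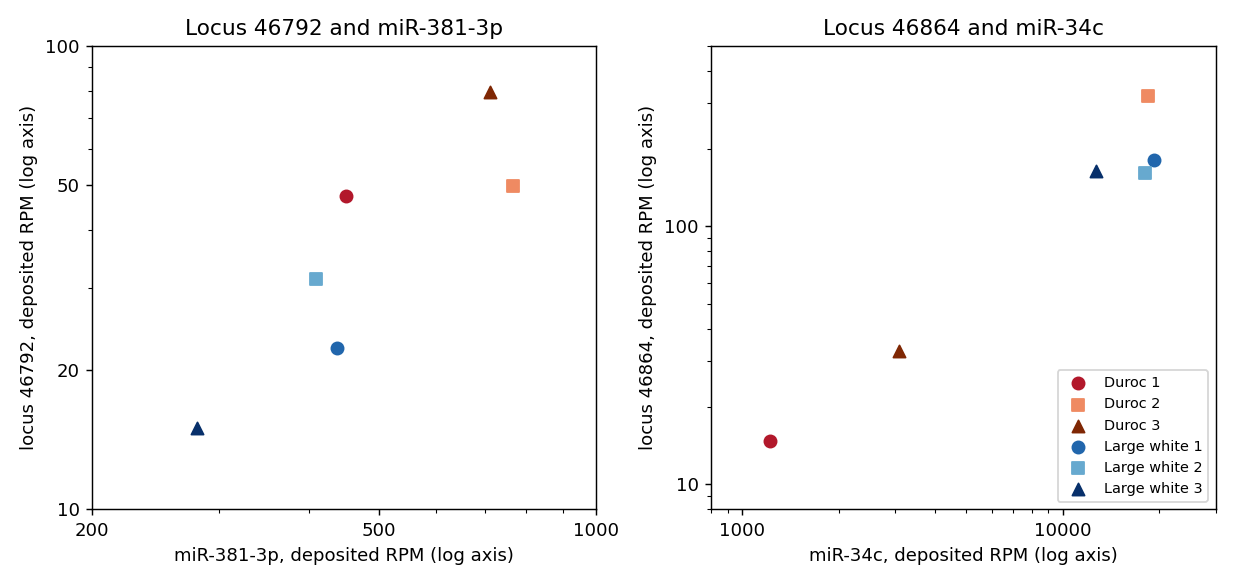
Deposited RPM in each library on log axes, of locus 46792 beside miR-381-3p (left) and of locus 46864 beside miR-34c (right). On the left the 3 Duroc libraries lie above and to the right of the Large white libraries, and on the right Duroc libraries 1 and 3 lie apart at the low end of both axes.

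The 13 loci that did not reach the filter had between 1 and 18 reads in all libraries together. Among them were the 4 of chrUn_NW_018084833v1, where 18 of the 23 reads came from Duroc library 3, 4 from Large white library 2 and 1 from Duroc library 2. Locus 46805 was the only one with reads in all libraries of one breed and none in the other, at 4, 1 and 8 in Duroc. That is 0.503 RPM over the Duroc libraries, under the 0.539 RPM that a floor of 3 reads gives over the Large white libraries. No fold is therefore given, and absence from Large white cannot be told from too few reads. In the edgeR fit with no filter, 46805 had an unadjusted p of 0.0487 and was not called (edgeR adjusted p = 0.383). Locus 46809 had 2, 3 and 11 reads in Duroc against 1, 1 and 0 in Large white, and 46838 had 7, 1 and 7 against 0, 0 and 1. Loci 46827 and 46842 went the other way in reads, with 1 read each in Duroc against 5 and 2 in Large white. The others of chrUn_NW_018084979v1 were 46829 with 6 reads, 46853 with 4, and 46819 and 46932 with 1 read each.

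The 25 loci together took a very small share of the reads counted at miRNA names. Shares were taken of the counted reads with 1 entry per name, not of all small RNA sequenced. The share was 0.0260% (exact Clopper-Pearson 95% interval 0.0251% to 0.0269%) in Duroc library 1, 0.137% (0.133% to 0.142%) in library 2 and 0.0477% (0.0463% to 0.0492%) in library 3. In Large white it was 0.134% (0.128% to 0.140%), 0.117% (0.112% to 0.121%) and 0.101% (0.0961% to 0.107%). These intervals and the floors cover counting error only. The mean was 0.0704 ± 0.0591% for Duroc and 0.117 ± 0.0163% for Large white (SD, n = 3 per breed), a difference within the spread of Duroc (two-sided exact permutation p = 0.4, where 0.1 is the smallest that 3 against 3 allows). Without 46901 the means were 0.0234% and 0.0249%. Of the reads of all unnamed loci, the 25 took 3.09% to 4.96% in Duroc and 4.40% to 4.48% in Large white.

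More of the loci had a read in Duroc, where the totals of counted reads are larger. Reads were found at 19, 17 and 23 of the 25 in the Duroc libraries and at 14, 18 and 11 in the Large white ones. When each library was thinned to the total of the smallest, the expected numbers were 11.8, 13.8 and 16.6 in Duroc against 14.0, 15.2 and 10.8 in Large white, and the breeds overlapped. Reads in all 6 libraries were found at 7 loci.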

How the data were processed

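STAR 2.7.10a, Salmon 1.9.0, Bowtie 1.3.1 and the genome susScr11 are named in the submitters' processing notes, without their roles. How loci were called and counted is not given in the sources used here. Each deposited small RNA table lists, per its file header, whole-number counts of reads for a mature miRNA and its precursor. They also hold RPM, which the authors scaled to the sum of those counts, 2 decimals given. The 845 entries held 765 names, and for the 67 on several rows the one with the most reads was kept. The total RNA files were not used.

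Counts were tested with edgeR 4.0.16 (quasi-likelihood, TMM, breed as the only term) in R 4.3.3, over all names with an RPM of 1 in at least 3 libraries, with Benjamini-Hochberg adjustment over all of them. SE is the log2 fold change over the square root of F, an approximation. Alternatives used DESeq2 1.42.0, limma 3.58.1, library totals, other filters and fewer libraries. The code was tested on simulated data.

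All members on sequences with at least 2 of them were named by rule, hence all 25. Members and lists were chosen with earlier results of these data known. The test planned for the number of loci with reads is not given, because reads chose the loci. The titles do not say that a number is shared between breeds. Same-numbered libraries correlated at -0.22, -0.12 and -0.07 over 421 names after centring by breed, and differently numbered ones at -0.08 to 0.18. With 3 libraries per breed, these values cannot show whether same-numbered libraries were handled together.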

Additional observations from a re-analysis of the deposited data

How the results depend on the processing

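Against 0 unplaced loci called by edgeR, DESeq2 called 1, edgeR with no filter 1 of 25, and leaving out 1 library 0 to 4, the 4 without Duroc library 2. The other settings called 0. The median log2 fold change of 0.96 was 0.32 with library totals, 0.31 with limma on log2(RPM + 1), 1.47 with at least 10 reads in all, 0.41 to 1.17 with 1 library left out and 0.51 with Duroc library 2 alone, a setting chosen after the data were seen. Locus 46807 changed sign most often. It was at -0.62 with library totals, -0.40 and -0.69 with limma at pseudocounts of 1 and 0.1, -1.01 with Duroc library 2 alone, and between -0.53 and 0.44 with 1 library left out, below 0 without Duroc library 3 or Large white library 2 or 3. With 1 library left out, 46864 lay between -1.94 and 0.13, above 0 without Duroc library 1 or 3, and 46976 between -0.47 and 0.40, above 0 without Duroc library 3 or Large white library 1. With Duroc library 2 alone 46864 was at 0.93, 46976 at 0.036, 46901 at 0.0030 and 46815 at -0.0047. Locus 46792 kept its direction in all settings run, as did 46797, 46811, 46839 and 46847. Loci 46832 and 46855 kept theirs in every setting where they were tested. The cause of the changes of sign was not tested. With the title number as a replicate block, 0 of the 12 loci were called, the median was 0.96 and 46807 was at -0.086. The breed difference in the number of loci with reads, 5.33, was 0.72 after thinning, which equals the read totals but not the share that miR-143-3p takes, 18.9% to 51.5%. The totals of counted reads limit most of the loci, since 3 reads stand for 0.227 RPM in Duroc library 1 and 2.03 RPM in Large white library 1.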

Other observations

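Some unplaced loci had equal or nearly equal read counts. Loci 46017 and 46068 of chrUn_NW_018084833v1 had equal counts in all 6 libraries, with 3 reads in Duroc library 3, 1 in Large white library 2 and 0 elsewhere. Loci 46009 and 46010 of the same sequence had 6 reads each in Duroc library 3 and 1 each in Large white library 2, and differed by 1 read in Duroc library 2. Whether the same reads were counted at both loci of a pair was not tested. Locus 46842, with 3 reads, had counts equal to those of miR-885-5p, and 46819 and 46932, with 1 read each, had counts equal to those of 5 other names each. None of the 12 tested loci had counts equal to those of any other name.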
